A study of Arabidopsis thaliana with 13 samples.

Results

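The levels of genes on the arrays of 42 and 48 h were compared with those on the arrays of 30 and 36 h, in Arabidopsis cotyledons cultured to turn into vascular cells. These are 4 of the 13 arrays of a time course with 1 sample every 6 h from 0 to 72 h, and the labels' times alone put each array in its pair. The tissue was Col-0 cotyledons of seedlings 6 days old, raised under continuous light at 22 °C in MS liquid culture. All 4 samples had been induced with the same additions, 2,4-D at 1.25 mg/L (a synthetic auxin), kinetin at 0.25 mg/L (a cytokinin) and bikinin at 10 µM (an inhibitor of GSK3-like kinases). No treatment therefore separates the pairs, only time. Each time has 1 array, so the spread within a pair also holds the change over 6 h, and the labels do not say whether the samples came from separate cultures. The p-values below therefore rest on the scatter among these arrays, part of which may be technical.

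In this culture system, called VISUAL, mesophyll cells of the leaf lose their identity and pass through a state like that of procambium, the stem cells of the vascular tissue. They then become xylem vessel cells or phloem sieve cells. Vessel cells lay down a thick secondary wall of cellulose, xylan and lignin on top of the thin, extensible primary wall, and then die, whereas sieve cells stay alive and carry sugar. In RNA from whole cotyledons, fewer cells of a type and less RNA per cell cannot be told apart.

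The arrays of 30 to 72 h had medians of 5.82 to 5.99 on the deposited log scale, read here as log2, and those of 0 to 24 h had medians of 5.15 to 5.35. All levels below are log2 values after each array was set to a common median of 5.91. A level of the first day set beside one of the later days therefore crosses that step in overall brightness. The fit used the 8 arrays of 30 to 72 h as 4 pairs of neighbouring times, with 4 residual degrees of freedom, and tested 10743 genes. A gene was called at a limma adjusted p under 0.05 and a log2 difference, 42 and 48 h minus 30 and 36 h, of at least 1 in size.

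Of the 10743 genes, 3 were called higher at 42 and 48 h than at 30 and 36 h, or 0.0279%. The 31 called lower came to 0.289%. The adjusted p-values of the 34 genes lay between 0.0374 and 0.0458 (limma), close under the threshold. Leaving out the 30 h array, or any 1 of the arrays of 54 to 72 h, left 0 genes called in limma, with 1442 genes at an unadjusted p under 0.05 without 30 h and 2238 to 2328 without a later array. Leaving out the 48 h array left 1 called higher and 0 lower. Without the 42 h array 93 were called higher and 196 lower, and without the 36 h array 32 higher and 126 lower.

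A wider view needs no test. In 26 genes, 0.242% of those tested, both later arrays stood above both earlier ones with a difference of at least 1. In 151 genes, 1.41%, both stood below. At an unadjusted p under 0.05 there were 597 genes on the higher side, 5.56%, and 1764 on the lower side, 16.4%. The median difference over all genes was -0.08, with 37.1% of genes above 0 and 62.9% below. With the values as deposited every difference lay 0.12 further up, the median became 0.04, and 44 genes stood at least 1 higher and 103 at least 1 lower, in place of 28 and 154. Small differences therefore have no settled sign.

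**Figure D1:**
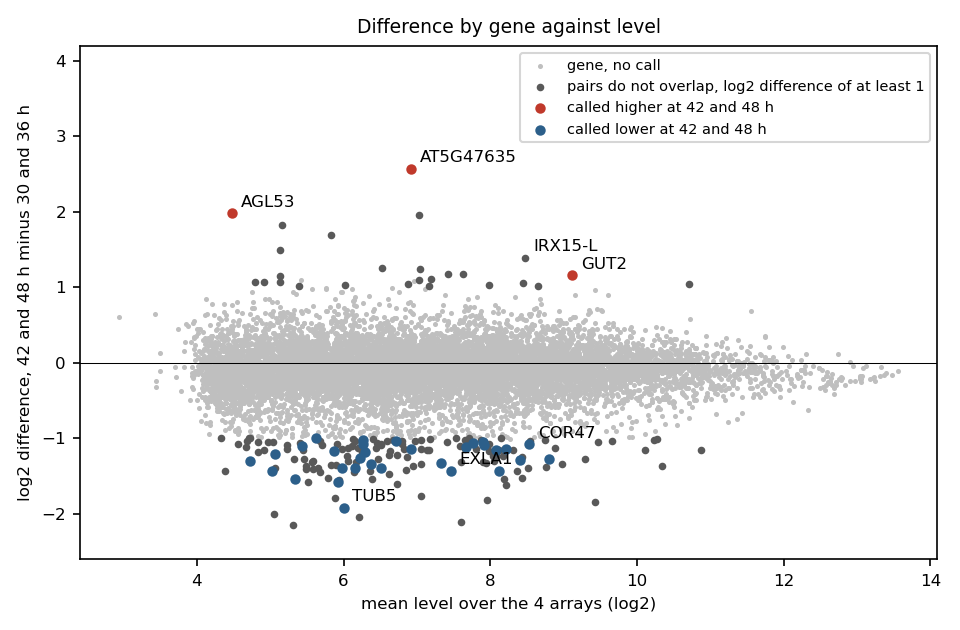
Log2 difference, 42 and 48 h minus 30 and 36 h, of each of the 10743 genes (vertical axis) against its mean log2 level on the 4 arrays (horizontal axis). Red points are the 3 genes called higher and blue points the 31 called lower, and the dark grey points below 0 are more numerous than those above it.

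The gene with the largest difference, AT5G47635, is known in the annotation used here only by its identifier. Its level was 7.78 at 42 h and 8.63 at 48 h, against 5.51 at 30 h and 5.76 at 36 h. The difference was 2.57 ± 0.253 (SE), a 5.93-fold rise with an adjusted p of 0.0374 (limma). It stayed up afterwards, at 8.40 to 8.96 from 54 to 72 h, and had been at 5.34 at 0 h. The step of 2.02 between 36 and 42 h made up most of the change.

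AGL53, which encodes a MADS-box transcription factor, rose 3.96-fold. It had levels of 5.79 at 42 h and 5.17 at 48 h, against 3.74 at 30 h and 3.25 at 36 h, a difference of 1.98 ± 0.268 (SE, limma adjusted p = 0.0374). The gene went on to 7.30 at 72 h. Its earlier levels were dim, and when each array was floored at its 40th percentile the difference shrank to 0.45.

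GUT2, also known as IRX10, makes the xylan backbone of secondary walls and was the third gene called higher. It stood at 9.45 at 42 h and 9.94 at 48 h, against 8.45 at 30 h and 8.63 at 36 h. The pairs were apart by 1.16 ± 0.168 (SE), or 2.23-fold (limma adjusted p = 0.0374). All 3 genes called higher moved most between 36 and 42 h and had a higher mean at 54 to 72 h than at 42 and 48 h.

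The genes next in size on the higher side did not pass the test. AT5G37478 stood at 7.87 and 8.16 at 42 and 48 h, against 5.33 and 6.78 at 30 and 36 h (adjusted p = 0.056, limma). AT1G13635 and AT3G51325 stood 1.49 and 1.26 higher, and TRM30, of a family of proteins that recruit TON1 to microtubules, stood 1.24 higher. These genes, like those called, were higher still at 72 h.

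AT5G35890 and AT1G33950 had another course. AT5G35890 had levels of 6.82 at 42 h and 5.31 at 48 h, against 3.90 at 30 h and 4.59 at 36 h. AT1G33950 had 7.62 at 42 h and 5.72 at 48 h, against 5.17 at 30 h and 4.79 at 36 h. Both stood highest on the 42 h array, and at 72 h they were at 4.34 and 3.82.

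The largest fall among the genes called was that of TUB5, which encodes a beta-tubulin of the microtubules. TUB5 had levels of 4.79 at 42 h and 5.30 at 48 h, against 7.44 at 30 h and 6.49 at 36 h. It fell by 1.92 on the log2 scale, 3.77-fold (SE 0.313, limma adjusted p = 0.0458), and stayed between 4.85 and 5.36 from 54 to 72 h. The other measured beta-tubulin genes did not pass. TUB6, TUB9 and TUB1 differed by -0.52, -0.48 and -0.30, and TUB7 by 0.35, and these 4 were chosen after their values were seen.

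Of the 31 genes called lower 7 have a symbol, and 3 of these encode proteins of the primary cell wall. How many of the 1306 tested genes with a symbol encode such proteins was not counted, so the 3 are a description. EXLA1, an expansin-like protein, had 6.81 at 42 h and 6.69 at 48 h, against 8.02 at 30 h and 8.35 at 36 h, a fall of 2.70-fold. ATPMEPCRB, a pectin methylesterase, had 8.03 at 42 h and 7.49 at 48 h, against 9.25 at 30 h and 8.86 at 36 h, a fall of 2.45-fold. XTH19, a xyloglucan endotransglucosylase/hydrolase, had 7.48 at 42 h and 7.25 at 48 h, against 8.53 at 30 h and 8.39 at 36 h, a fall of 2.13-fold. Each pair lay wholly below the earlier one, and the limma adjusted p-values were 0.0434 for EXLA1 and 0.0458 for ATPMEPCRB and XTH19.

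The relatives of these wall genes did not share a call. EXLA2 and EXLA3, chosen after their values were seen, stood 0.98 and 1.12 lower without passing. Of 7 XTH genes tested, XTH19 was the 1 called, and the other differences ran down to -0.51 and up to 0.16. The 8 expansin genes of the EXPA group had a median difference of -0.19, with 0 called.

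Other genes with a known product also fell. IQD18, a calmodulin-binding protein of the IQ67-domain family, had 5.72 and 5.49 at 42 and 48 h, against 7.19 and 6.54 at 30 and 36 h. Its relative IQD19, chosen after its values were seen, stood 1.14 lower without passing. COR47, a dehydrin induced by cold and drought, had 7.96 and 8.02 at 42 and 48 h, against 9.22 and 8.93 at 30 and 36 h (adjusted p = 0.0374, limma). UGT71B1, a sugar transferase, fell by 1.02 on the log2 scale.

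AT3G21670, a member of the NRT1/PTR family of nitrate and peptide transporters, fell 2.90-fold. Its levels were 4.91 at 42 h and 4.25 at 48 h, against 6.34 at 30 h and 5.88 at 36 h. At 72 h it stood at 3.54, the lowest of its 13 levels. The levels from 42 h on were dim, and the difference ran from -1.87 to -1.08 over 20 other ways of processing the data. The remaining genes among the 10 largest called falls are known here by identifier only. They are AT1G60060, AT1G15010, AT5G01210, AT2G18180, AT1G20680, AT2G30230 and AT1G11850, with differences of -1.58 to -1.34. AT1G15010 was dim at 42 and 48 h, and with each array floored at its 40th percentile its difference shrank to -0.71.

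**Figure D2:**
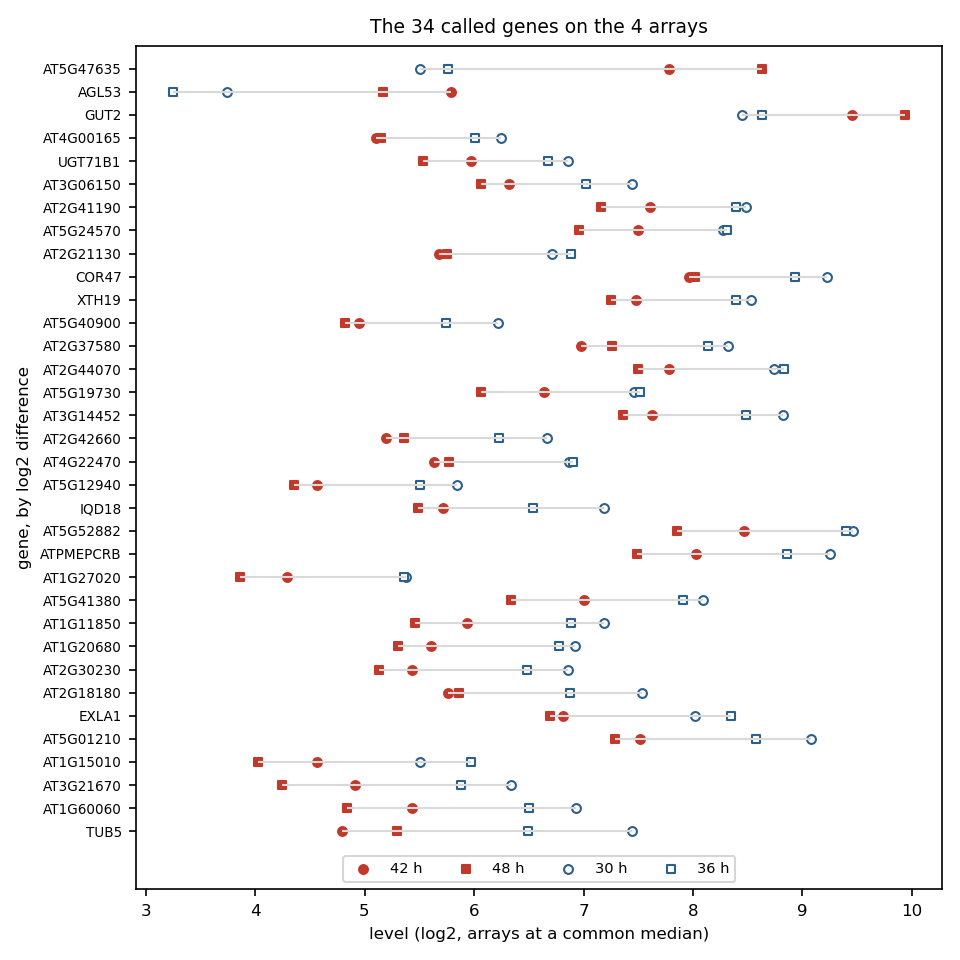
Log2 level of each of the 34 called genes (rows, by difference) on the arrays of 42 h and 48 h (filled red) and of 30 h and 36 h (open blue). In every row the red symbols lie on 1 side of the blue ones, with the 3 genes called higher at the top and TUB5 at the bottom.

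The genes called were chosen for a gap between the pairs, which favours the step between 36 and 42 h, so its size is a description. That step was the largest of the 3 in all 31 genes called lower and all 3 called higher. The 31 genes had median steps of -0.24 between 30 and 36 h, -0.97 between 36 and 42 h and -0.28 between 42 and 48 h. Over all genes, 72 stood at least 1 higher at 36 than at 30 h, 16 at 42 than at 36 h and 139 at 48 than at 42 h. At least 1 lower were 44, 107 and 38 genes at the same steps. The step between 36 and 42 h held the most falls and the fewest rises of that size among the 3. The median step over all genes was 0.04, -0.1 and -0.02 in the same order. The 28 genes high on the 36 h array alone, described below, are by their definition among both the 72 rises and the 107 falls.

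After 48 h the genes went different ways. The 31 genes had a median level of 5.75 at 42 and 48 h, against 7.04 at 30 and 36 h, and it was 5.82 at 54 to 72 h. In 21 of the 31 the mean at 54 to 72 h was below that at 42 and 48 h. Others came back in part, such as AT2G44070, chosen after its values were seen, at 7.78 and 7.50 at 42 and 48 h, against 8.74 and 8.83 at 30 and 36 h, and then 8.54 at 60 h. The 2 pairs are 12 h apart, so a daily swing and a lasting change cannot be told apart from these 4 arrays. The arrays of 54 and 60 h lie 24 h after those of 30 and 36 h. In all 31 genes called lower they still stood on the lower side of the 30 and 36 h arrays. In all 3 called higher they stood on the higher side. In the wider view this held in 140 of 151 genes on the lower side and 21 of 26 on the higher side. These genes were picked by a gap from the same 30 and 36 h values, which favours this outcome. No share over all genes was computed, so the counts are a description. A daily swing itself was not tested.

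The secondary wall genes had the highest median of the lists of genes looked at. Of 59 names listed, 11 were on the arrays with a name and 10 were tested, with a median difference of 0.72, against -0.08 over all genes. GUT2 was called higher and none lower. In 9 of the 10 both later arrays stood above both earlier ones, where 16.9% of all genes did. The lists and their members were chosen with earlier results of these data known, so the rank and these counts are a description.

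IRX15-L, which takes part in xylan synthesis, had 8.75 at 42 h and 9.59 at 48 h, against 7.56 at 30 h and 8.0 at 36 h (adjusted p = 0.0539, limma). Its close relative IRX15 had 4.62 and 5.27 at 42 and 48 h, against 4.12 and 4.15 at 30 and 36 h. The pairs of both genes lay apart, and neither passed the test.

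The listed xylan acetylation genes of the TBL family varied among themselves. TBL33 had 7.74 and 8.70 at 42 and 48 h, against 6.97 and 7.14 at 30 and 36 h (adjusted p = 0.0668, limma). TBL31 stood 1.07 higher and TBL34 0.40 higher. TBL32 and GUT1, a close relative of GUT2, differed by 0.08 and 0.09. TBL28, at -0.46, was the 1 member of the secondary wall list below 0. Over the whole TBL family, grouped by symbol after values were seen, 13 of 18 genes tested lay below 0, beside 62.9% of all genes. Their median was -0.2, with 0 called. TBL41, not on the list and chosen after its values were seen, differed by -1.30 without passing.

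The peroxidase gene AT5G66390, listed as PRX72, had 6.01 and 6.74 at 42 and 48 h, against 5.87 and 5.61 at 30 and 36 h. PRX52, a peroxidase linked to lignin that was not on the lists and was chosen after its values were seen, had 9.02 and 8.94 at 42 and 48 h, against 7.58 and 8.25 at 30 and 36 h (adjusted p = 0.0503, limma). HCT, an enzyme of the lignin pathway, stood 0.41 higher and did not pass. In the xylan genes IRX15-L and TBL33, as in PRX72, 48 h stood well above 42 h, and the median of the list was 1.07 without the 42 h array and 0.39 without the 48 h array. With a floor at the 40th percentile of each array it was 0.35.

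The 39 listed regulators of xylem formation, among them VND6, VND7, MYB46 and MYB83, and the vessel cellulose synthases and XCP proteases, were not analysed here, since no tested gene bore their names. Whether the switch genes of vessel formation moved was therefore not tested. Of the genes of the programmed death of vessel cells, 1 was measured. SCPL48, a serine carboxypeptidase-like gene spelled scpl48 in the annotation, had 11.36 and 11.42 at 42 and 48 h, against 11.18 and 11.56 at 30 and 36 h, and the pairs overlapped.

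**Figure D3:**
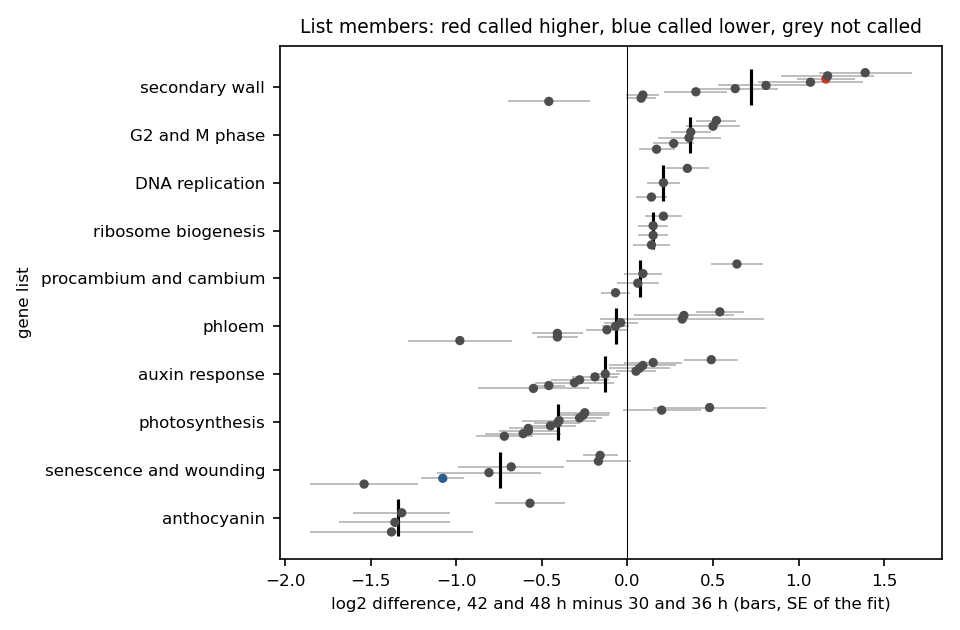
Log2 difference, 42 and 48 h minus 30 and 36 h, of each tested member of 10 gene lists (points; bars are the SE of the fit, black ticks the list median). Secondary wall genes reach 1.39 with a median of 0.72, and the anthocyanin list has the lowest median, -1.34, while the lowest point is SAG29 at -1.54.

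Markers of the procambium state showed no shared shift. BRL1, a brassinosteroid receptor of vascular cells, had 7.23 and 7.31 at 42 and 48 h, against 6.53 and 6.73 at 30 and 36 h (adjusted p = 0.0691, limma). PHV, a class III homeodomain-leucine zipper factor, differed by 0.09 and LHW, a bHLH factor that promotes vascular divisions, by -0.07. Of the 4 genes tested none was called, and their median was 0.08, with LHW on the positive side in the values as deposited. PXY, WOX4, HB-8 and TMO5 were not analysed here.

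The 9 phloem genes had a median of -0.07, which turned to 0.05 in the values as deposited, and none was called. OPS, which promotes the first sieve cells, had 7.96 and 8.0 at 42 and 48 h, against 7.28 and 7.61 at 30 and 36 h. CLE45, a peptide of the same cells, had 4.70 and 5.62 at 42 and 48 h, against 5.06 and 4.60 at 30 and 36 h. The OPS pairs lay apart and the CLE45 pairs overlapped.

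CLE41 and CLE44, which encode the peptide TDIF that keeps procambium from becoming xylem, differed by -0.41 and -0.07. SWEET11, a sugar exporter that feeds the phloem, had 9.62 and 9.17 at 42 and 48 h, against 10.50 and 10.25 at 30 and 36 h, and did not pass. AT5G53730, listed as NHL26, differed by -0.41. APL, SEOR1 and SUC2 were not analysed here.

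The SWEET transporters lay low as a group, and were picked as a family after values were seen. Of 6 measured, 5 had both later arrays below both earlier ones, where 39.7% of all genes did, and the median was -0.89, with 0 called. SWEET4 had 7.73 and 6.83 at 42 and 48 h, against 8.81 and 8.42 at 30 and 36 h. SWEET13 was the exception at 0.32. SAG29, which is also a SWEET sugar transporter and a senescence marker, had 6.06 and 5.18 at 42 and 48 h, against 7.35 and 6.97 at 30 and 36 h (adjusted p = 0.056, limma).

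Genes of cell division stood slightly higher. All 6 genes of G2 and mitosis had both later arrays above both earlier ones, where 16.9% of all genes did, with a median difference of 0.37 and 0 called. BUBR1, a spindle checkpoint kinase homologue, had 9.79 and 9.95 at 42 and 48 h, against 9.20 and 9.50 at 30 and 36 h. AUR3, an Aurora kinase, had 8.79 and 8.90 at 42 and 48 h, against 8.09 and 8.60 at 30 and 36 h.

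In the other Aurora kinases most of the difference lay in a low 30 h array. AUR1 had 10.57 and 10.60 at 42 and 48 h, against 9.90 and 10.55 at 30 and 36 h, and AUR2 had a step of 0.01 between 36 and 42 h. HTR12, also of this list, had a step of 0.03 there. BUBR1, BUB3.1 and AUR3 instead rose at each step, by 0.29, 0.13 and 0.19 between 36 and 42 h. Without the 30 h array the median of the 6 genes was 0.16, and without the 36 h array it was 0.60.

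The 3 DNA replication genes, TOPII, PRL and ICU2, differed by 0.35, 0.21 and 0.14. TOPII encodes DNA topoisomerase II, PRL the helicase subunit MCM7 and ICU2 a subunit of DNA polymerase alpha. Of 4 ribosome biogenesis genes none was called, and the median was 0.15. NRPA1 and NRPA2, subunits of RNA polymerase I, each differed by 0.15. All 7 of these differences lay above 0 and were small, and none passed.

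**Figure D4:**
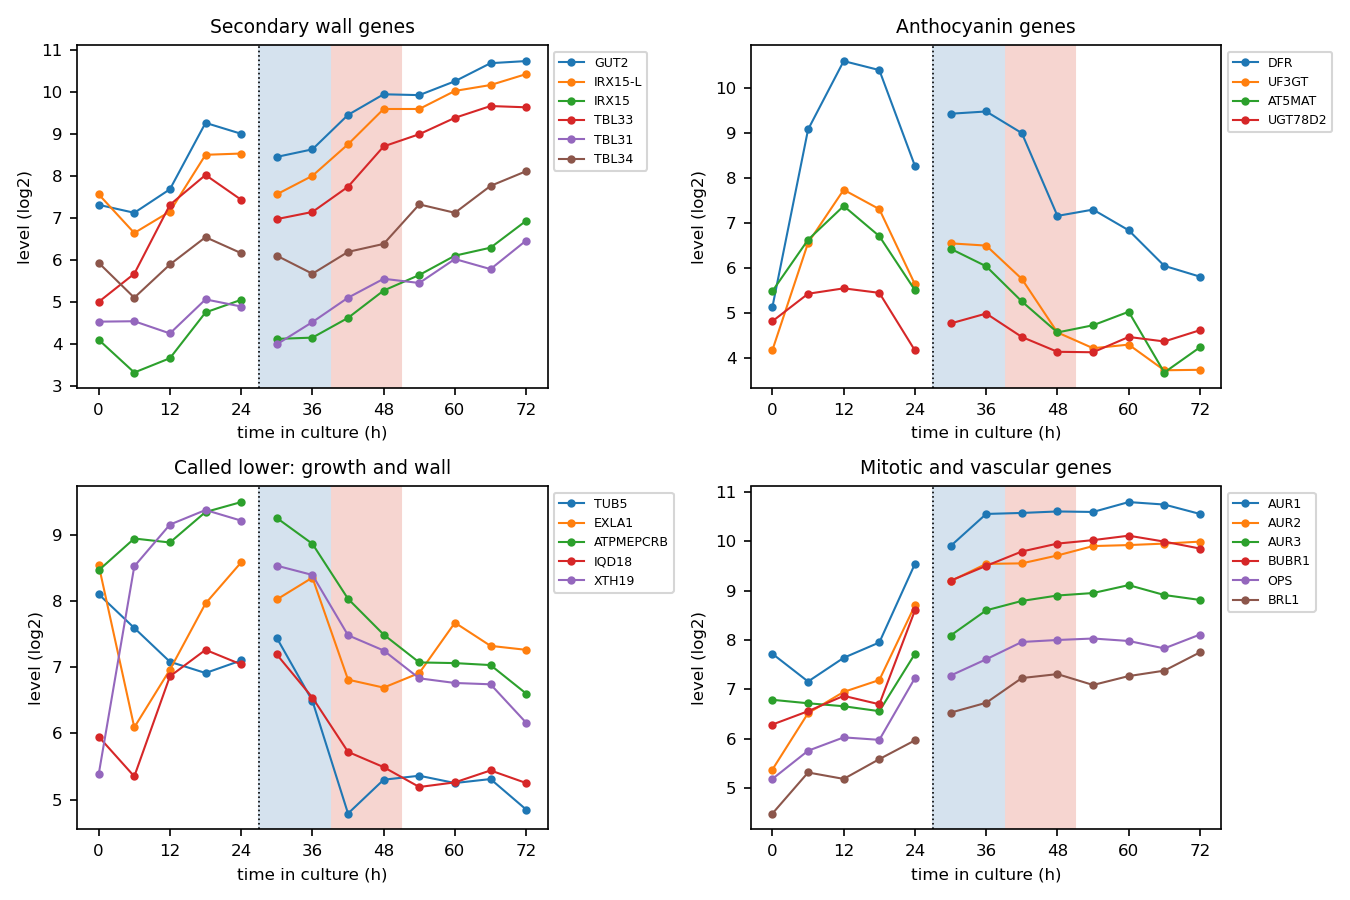
Log2 level over 72 h of culture (time in h on the horizontal axis) for secondary wall, anthocyanin, called lower, and mitotic and vascular genes. Blue shading marks 30 and 36 h, red shading 42 and 48 h, and the dotted line the step in overall level between the array sets. GUT2 and IRX15-L, which stand higher at 18 and 24 h than at 30 h, climb through the shaded times to 72 h. DFR and UF3GT sink at 48 h.

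Anthocyanin synthesis genes had the lowest median of the lists with at least 3 members, -1.34 over 4 genes, and none was called. This rank is likewise a description, since the lists were chosen with earlier results known. DFR, the enzyme dihydroflavonol reductase, had 8.99 at 42 h and 7.15 at 48 h, against 9.42 at 30 h and 9.47 at 36 h (adjusted p = 0.143, limma). UF3GT, which adds a sugar to anthocyanin, had 5.75 at 42 h and 4.56 at 48 h, against 6.54 at 30 h and 6.49 at 36 h. AT5MAT, which adds a malonyl group, had 5.25 at 42 h and 4.56 at 48 h, against 6.42 at 30 h and 6.03 at 36 h.

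In all 3 the 48 h array was the lowest of the 4. In DFR and UF3GT, but not in AT5MAT, the gap between 42 and 48 h was wider than that between the pairs' nearest arrays. UGT78D2, a flavonoid sugar transferase, differed by -0.57. Without the 48 h array the median of the 4 genes was -0.61. At 72 h DFR stood at 5.80 and UF3GT at 3.73, below their levels at 42 and 48 h.

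Photosynthesis genes, the mark of the mesophyll cells that the culture starts from, lay mostly below 0. Of 12 tested, 10 had a difference below 0, where 62.9% of all genes did, and 9 had both later arrays below both earlier ones, where 39.7% did. The median was -0.41, or -0.22 without the 48 h array, and none was called. PSAE-1, a subunit of photosystem I, had 9.70 and 9.36 at 42 and 48 h, against 10.38 and 10.11 at 30 and 36 h (adjusted p = 0.0648, limma). PRK, a Calvin cycle enzyme, had 7.03 and 6.56 at 42 and 48 h, against 7.21 and 7.61 at 30 and 36 h.

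LHB1B2 and LHCB4.2, which bind chlorophyll in the light-harvesting complex, went the other way at 0.48 and 0.20, with overlapping pairs. CHL, a chloroplast lipocalin picked after its values were seen, had 6.22 and 6.30 at 42 and 48 h, against 7.94 and 7.31 at 30 and 36 h (adjusted p = 0.0503, limma). Of 63 genes of the plastid genome, 61 had a difference below 0, beside 62.9% of all genes, and 60 had both later arrays below both earlier ones, beside 39.7%. Their median was -0.24, with 0 called. In the values as deposited that median was -0.12, with 55 below 0.

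Markers of other cell types in the cotyledon were few. SPCH and FAMA (spelled FMA in the annotation), regulators of the stomatal lineage, each differed by -0.33. WSD1, a wax ester synthase of the epidermis, had 7.16 and 6.91 at 42 and 48 h, against 7.53 and 7.67 at 30 and 36 h. None was called, and MUTE and EPFL9, named on the array, fell under the filter on dim probe sets. What share of any difference above comes from a changed mix of cells was not tested.

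Hormone response genes showed no shared direction. Of 11 auxin genes, 5 lay above 0 and 6 below, with 0 called. GH3.3, which conjugates auxin to amino acids, had 11.84 and 11.59 at 42 and 48 h, against 12.16 and 12.20 at 30 and 36 h (adjusted p = 0.056, limma). IAA20, a repressor of auxin response, had 4.93 and 4.86 at 42 and 48 h, against 4.45 and 4.36 at 30 and 36 h. These levels were dim, and the difference kept its sign in 19 of 20 other ways of processing the data. IAA34 differed by -0.55, with the 30 h array alone high at 6.71.

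The cytokinin response regulators RR16 and ARR15 differed by -0.45 and 0.23. The brassinosteroid genes BIM1, a transcription factor, and EXPA8, an expansin, differed by -0.23 and -0.27. Among 6 genes of senescence, wounding and cold, COR47 was called lower, and the median was -0.75. KIN2, a small protein induced by cold, had 7.28 and 6.59 at 42 and 48 h, against 7.69 and 7.80 at 30 and 36 h.

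Some large differences came from 1 array. On the 30 h array 33 genes stood at least 1 above the other 3 arrays, on the 36 h array 28, on the 42 h array 5 and on the 48 h array 53. None of the 28 genes of the 36 h array was called, and 11 of them were among the 151 genes of the wider view. The 28 were picked by these values, so their excess of 1.06 to 3.47 at 36 h is a description.

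The genes of the 36 h array include 3 with a symbol, STZ, a zinc-finger repressor of stress responses, and PUB22 and PUB23, ubiquitin ligases that dampen immune responses. AT4G27652 had 4.15 and 4.31 at 42 and 48 h, against 4.65 and 8.12 at 30 and 36 h, and 7.17 again at 60 h. STZ had 5.76 and 5.11 at 42 and 48 h, against 5.92 and 7.40 at 30 and 36 h, and 6.98 at 60 h. In 27 of the 28 the 60 h array stood above those of 54, 66 and 72 h, as it did in 36.7% of all genes, and in 16 it did so by at least 1, as in 0.316% of all genes. The arrays of 36 and 60 h are 24 h apart.

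COR27, a cold- and clock-regulated gene, had another course. It had 6.92 at 42 h and 7.90 at 48 h, against 9.65 at 30 h and 8.41 at 36 h, and then 9.01 at 54 h (adjusted p = 0.086, limma). CCL had 7.96 at 42 h and 9.07 at 48 h, against 10.91 at 30 h and 9.79 at 36 h. AT1G56300 had 5.50 at 42 h and 7.58 at 48 h, against 9.38 at 30 h and 7.93 at 36 h, and 8.33 at 54 h. In all 3 genes the 42 h array was the lowest of the 4 and the 30 h array the highest.

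The clock gene GI had 7.70 and 8.82 at 42 and 48 h, against 9.14 and 7.78 at 30 and 36 h, so that its pairs overlapped and differed by -0.21. None of these genes passed the test. A pair covers 6 h, and for genes with such a course the mean of a pair depends on the times that were sampled. CCL, AT1G56300 and the genes of the 36 h array were chosen after their values were seen.

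**Figure D5:**
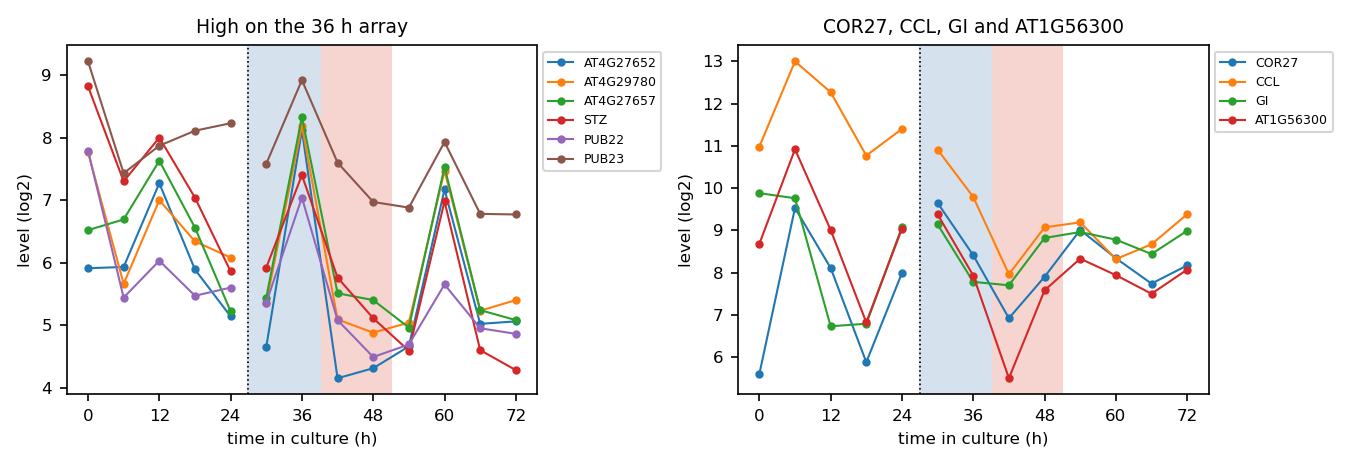
Log2 level over 72 h of culture (time in h) for 6 genes that stood high on the 36 h array (left) and for COR27, CCL, GI and AT1G56300 (right), with 30 and 36 h shaded blue and 42 and 48 h shaded red. On the left AT4G27652 peaks at 8.12 at 36 h and 7.17 at 60 h, and on the right COR27 and AT1G56300 reach their lowest level from 30 h on at 42 h.

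The same pairing 24 h later, 66 and 72 h against 54 and 60 h, gave fewer calls. There 2 genes were called higher, 0.0186%, and 0 lower, and 1010 genes, 9.4%, had an unadjusted p under 0.05 (limma). The test of the difference between the 2 comparisons called 3 genes, 0.0279%, with 1710 genes, 15.9%, at an unadjusted p under 0.05. ALPHA-VPE, a vacuolar processing protease, was 1 of the 3. It had 4.65 and 4.75 at 42 and 48 h, against 5.50 and 5.37 at 30 and 36 h, and later 7.18 and 7.38 at 66 and 72 h, against 5.55 and 5.78 at 54 and 60 h. The levels at 42 and 48 h were dim.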

How the data were processed

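Total RNA from 13 cotyledon samples was labelled and hybridised to 1 Affymetrix array each, per the labels' protocols. The authors deposited 1 value per probe set and array, taken here as log2 because of its range. Neither the log base nor the background correction, probe summary or normalization is given in the sources used here. GCOS is named, without a role, in the submitters' processing notes. Precision is limited by the number of arrays, and the files hold no detection values.

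Of 38408 probe sets, the platform annotation named 1 gene for 16722, several for 759 and none for 20927, and 16574 of the 16722 were matched to the TAIR10.1 RefSeq annotation. No positions are printed because no build was named, and promoter motifs, which had been planned, were not analysed here. Every array was set to the common median of 5.91. The dimmest 30% of probe sets by mean over the 8 arrays of 30 to 72 h were left out and the brightest probe set per gene was kept, leaving 10743 genes, 1306 of them named by symbol. A mean was fitted for each of 4 pairs of neighbouring times in limma 3.58.1 (R 4.3.3), followed by eBayes with an intensity trend. Benjamini-Hochberg adjustment ran over all genes.

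Named genes were the 10 largest rises and falls among called genes whose pairs did not overlap, filled with genes not called where fewer were called, the 6 largest each way with a symbol, and the 3 members of each list with the largest difference. Others are said to be chosen after their values were seen, as were the remaining list members named, the symbol families and the 36 h group. The members and the 18 lists were chosen with earlier results of these data known. CHI, FDH and LCR were left out of their lists, since these symbols name other genes in the annotation.

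On simulated data with 200 of 10743 genes changed, the fit recovered 41.5% of genes changed by 1 on the log2 scale, which is the threshold itself, and 100% of those changed by 2. It called 0 and 8 unchanged genes. The simulated arrays varied independently around each gene's mean, with no change over 6 h inside a pair and no effect shared across an array. These counts therefore do not measure how many of the real calls are false.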

Additional observations from a re-analysis of the deposited data

Results flagged for a closer look

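In 3 genes the difference between 42 and 48 h and 30 and 36 h was itself different from that between 66 and 72 h and 54 and 60 h, by the limma test of the difference between the comparisons. The gap was -2.82 on the log2 scale in AT2G14095 (adjusted p = 0.0103), -2.35 in ALPHA-VPE (adjusted p = 0.0142) and -3.2 in AT4G33810 (adjusted p = 0.0306). AT2G14095 had 4.08 and 4.11 at 42 and 48 h, against 5.01 and 4.75 at 30 and 36 h, but 6.66 and 6.80 at 66 and 72 h, against 4.62 and 4.77 at 54 and 60 h. AT4G33810 had 4.78 and 4.61 at 42 and 48 h, against 6.35 and 5.59 at 30 and 36 h, but 6.97 and 7.13 at 66 and 72 h, against 5.02 and 5.25 at 54 and 60 h. All 3 genes stood lower at 42 and 48 h and higher at 66 and 72 h than in the pair before, and none was called in the 42 and 48 h comparison alone.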

How the results depend on the processing

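No gene was called with all 13 arrays in the fit (0 higher and 0 lower), with the 4 arrays of 30 to 48 h alone, with the values as deposited or with no intensity trend, though 1584 to 2526 genes had an unadjusted p under 0.05 there (limma). The cause was not tested. In 9 of the 21 settings 0 genes were called, and each of the 34 genes was called in 6 to 11 settings. With quantile normalization 3 genes were called higher and 6 lower, so 33.3% of calls were on the higher side, against 8.82% as reported. The number called higher was 6 with the 50% of dimmest probe sets left out, 6 with a floor at the 20th percentile, 5 with robust eBayes and 6 with array weights. Leaving out 1 array gave 0 to 93 called higher and 0 to 196 called lower, with the lone array of a pair assumed to vary like the other pairs. Without the arrays of 36 and 60 h, an alternative chosen after seeing the data, 6 were called higher and 8 lower, and 72 and 250 genes differed by at least 1.

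Genes with a difference of at least 1 numbered 19 to 110 on the higher and 126 to 275 on the lower side when 1 array was left out. They numbered 44 higher with the values as deposited, and 18 higher and 95 lower with the 50% of dimmest probe sets left out, which tests fewer genes. List medians moved beyond their spread as follows. With the values as deposited they were 0.19 for procambium, 0.32 for DNA replication and 0.26 for ribosome biogenesis, which was 0.23 with quantile normalization. The secondary wall median was 0.35 with a floor at the 40th percentile and ran from 0.39 to 1.07 with 1 array left out. With 1 array left out, the G2 and mitosis median ran from 0.16 to 0.60, that of anthocyanin from -1.81 to -0.61 and that of ribosome biogenesis from 0.1 to 0.21, and without the arrays of 36 and 60 h that of G2 and mitosis was 0.60. No paired analysis was possible because the labels give no replicate numbers.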
